A study of Mus musculus with 20 samples.

Results

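RNA-seq profiles of 3 embryonic stem cell (ESC) lines that were grown from primordial germ cells (PGCs) and lack Puma and Noxa were set against those of 4 wildtype ESC lines derived from host embryos, over all genes. The libraries were chosen by their column labels alone, and they are 7 of the 20 libraries of a series on the potency of mouse PGCs. The PGC-ESC DKO lines carry the label Puma Noxa DKO (double knockout), the ESC Host lines carry the label Wildtype, and both groups have the strain label C57Bl6J. All 7 were kept on gelatin in N2B27 medium with LIF, the GSK3 inhibitor CHIR99021 and the MEK inhibitor PD0325901, a culture known as 2i/LIF that holds mouse ESCs in the naive state. EpiLC DKO (3 libraries, same genotype label and strain label) and EpiLC Host (2 libraries, Wildtype) are epiblast-like cells made from lines of the same names, and they are used for comparison. How the PGCs were made into cell lines is not described in the labels used here. PGC origin, the DKO genotype and an EGFP reporter differ together between the groups, so that their parts in a difference cannot be told apart.

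PGCs are the embryonic founders of sperm and eggs. They are set aside from the epiblast, erase most of their DNA methylation as they migrate to the gonads, and can give rise to pluripotent cell lines in culture. Puma (gene Bbc3) and Noxa (gene Pmaip1) are BH3-only proteins: both are transcriptional targets of p53, and both release the mitochondrial effectors BAX and BAK from their inhibitors of the BCL-2 family. ESCs in 2i/LIF express a naive factor network (Esrrb, Tfcp2l1, the Klf genes) on top of the core factors Pou5f1, Sox2 and Nanog.

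The 7 libraries held between 14255399 and 32519011 counts. The 45S ribosomal RNA precursor Rn45s took up 26754, 52043 and 36812 CPM (counts scaled to the size of the library) in DKO 1 to 3, against 3726, 4078, 28404 and 61559 CPM in Host 1 to 4, so that Host 1 and Host 2 were low in it and every DKO library was high. Genes of the Y chromosome averaged 25.0 CPM in DKO 3, against 2.36 CPM in Host 4, and were at 0 in the other 5 libraries. The first principal component (31.0% of the variance) placed DKO 2 and Host 4 at one end and Host 1 and Host 2 at the other, and did not separate the groups. Replicates are lines with separate numbers in the labels. The p-values measure the spread between libraries of a group, estimated over all 20 libraries of the series and not over these 7 alone. Levels below are CPM on the scale set by TMM (trimmed mean of M-values) factors, which ranged from 0.844 to 1.03. Fold changes are log2 of PGC-ESC DKO over ESC Host with a standard error (SE), and calls were made where the adjusted p was under 0.05 (edgeR quasi-likelihood test, Benjamini-Hochberg over 16363 tested genes).

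Few genes separated the PGC-derived DKO lines from the host ESCs. The test called 19 genes, 0.116% of those tested: 9 were higher in PGC-ESC DKO (0.055%) and 10 were lower (0.0611%). All 19 had levels that did not overlap between the groups, as did 5.64% of all tested genes (1.75% with DKO above and 3.89% with DKO below all Host lines). For 9857 genes (60.2%) the 95% interval of the fold change lay within 2-fold in both directions, and 1195 genes (7.3%) had an unadjusted p under 0.05, of which 340 were higher (2.08%) and 855 lower (5.23%) in DKO lines. The median log2 fold change of all tested genes was -0.05. The number of calls depended on single libraries: 44 genes were called without Host 4, 14 without DKO 1, and 441 (364 higher, 77 lower, with all 19 among them) when DKO 3 and Host 4, the lines with Y-linked reads, were both left out. With Host 1 and Host 2 left out 19 genes were called, of which 17 were among the 19 above. A fit of the compared groups alone kept 9 of the 19 calls and lost those of Gm14410, Wdfy1, Traip, Spata5l1, Bco1, Zfp277, Gm14393, Serpina3m, Fmn2 and Pkhd1 (adjusted p from 0.0752 for Gm14410 to 0.431 for Gm14393, edgeR).

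**Figure D1:**
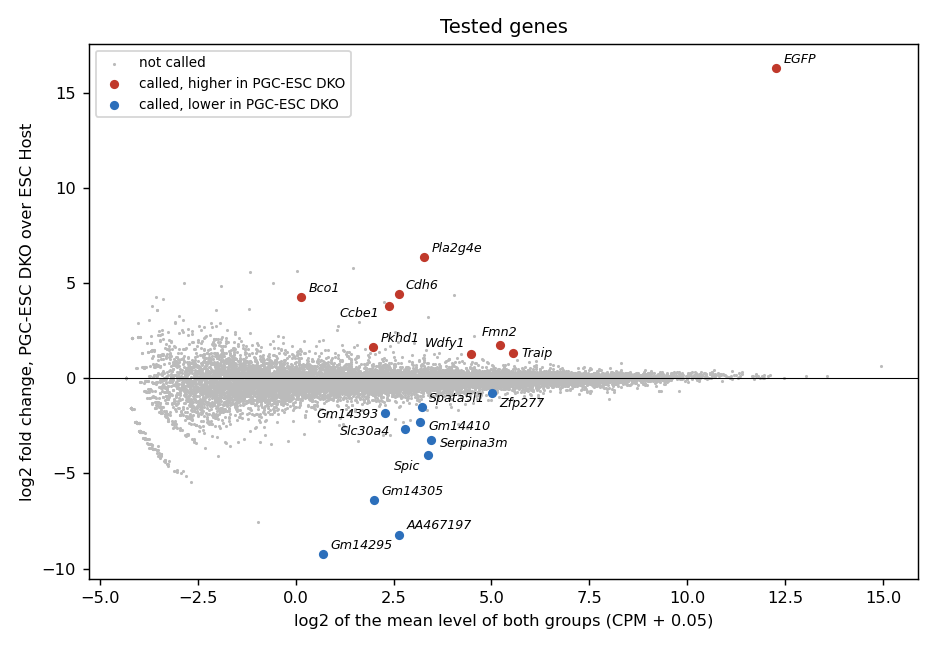
Each point is 1 of the 16363 tested genes, with the log2 of its mean level on the x axis (CPM plus 0.05, mean of both group means) and the log2 fold change of PGC-ESC DKO over ESC Host on the y axis. The 9 genes called higher and the 10 called lower are coloured and named, and most grey points lie close to 0 at high levels; the height of Gm14295, which had no count in DKO lines, depends on the fit's prior count.

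The reporter and the targeted genes came first as a check of the labels. EGFP, the green fluorescent protein, stood at 9306, 11193 and 9051 CPM in DKO 1 to 3, against 0, 0, 0 and 0.649 CPM in Host 1 to 4, the last from 11 counts. Pmaip1 (Noxa) stood at 1.38, 5.01 and 3.47 CPM in DKO lines, against 46.1, 51.3, 21.3 and 24.2 CPM in Host lines. Every DKO library lay below every Host library, but the difference of -3.52 ± 0.69 (SE) had an adjusted p of 0.0567 (edgeR) and was not called in naive culture. It was called without Host 4 (adjusted p = 0.0428; 0.0428 to 0.302 over the 7 fits that each left out a library), with both DKO 3 and Host 4 left out, without the filter on low counts and with DESeq2. Bbc3 (Puma) was at 30.1, 56.6 and 40.1 CPM in DKO lines, against 38.6, 45.0, 40.5 and 58.9 CPM in Host lines, with overlapping groups and a fold change of -0.12 ± 0.23 (adjusted p = 0.933, edgeR). Which part of Bbc3 was deleted is not stated in the labels, and a count over the whole gene does not check the deletion of a part of it.

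Many of the called genes lie on 1 chromosome: 8 of the 19 are on chromosome 2 (7 lower and 1 higher in DKO lines), which holds 7.79% of the tested genes that have a position (GRCm38, the build also named mm10). The 8 fall into a central group and a distal group of zinc finger genes. In the central group, AA467197 (chr2:122637887-122641076), the mouse counterpart of the human gene for a small mitochondrial protein linked to the respiratory chain, was at 0, 0.0808 and 0.0668 CPM in DKO 1 to 3, against 11.5, 19.2, 8.03 and 10.6 CPM in Host 1 to 4. The DKO libraries held 2 counts of it in all and the Host libraries 1183, a level 343.7-fold higher in Host (95% counting interval 94.93 to 2841). The Host levels spread over a little more than a doubling, and no DKO library came near them.

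The genes on both sides of AA467197 fell as well. Spata5l1 (chr2:122630625-122636478), an AAA-type ATPase of ribosome maturation, ends 1.409 kb before AA467197. It was at 4.55, 3.63 and 6.21 CPM in DKO lines, against 13.6, 14.9, 16.5 and 10.3 CPM in Host lines, a fold change of -1.53 ± 0.22 (adjusted p = 0.0026). Slc30a4 (chr2:122681233-122702663), the zinc transporter ZnT4, lies on the minus strand, with its nearer end 40.16 kb after AA467197. It was at 1.62, 1.53 and 2.41 CPM in DKO lines, against 16.2, 14.1, 8.48 and 8.49 CPM in Host lines, a fold change of -2.68 ± 0.29 (adjusted p = 6.42e-05). In both genes the groups stood well apart, and in Slc30a4 Host 3 and Host 4 were lower than Host 1 and Host 2. The next tested genes outward did not pass the test: Gatm, an enzyme of creatine synthesis, had -2.57 ± 0.58 (adjusted p = 0.136) and Bloc1s6, a subunit of a lysosome biogenesis complex, had -0.57 ± 0.17 (adjusted p = 0.363).

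The region around AA467197 held more low p-values than the genome. Within 1 Mb, 8 of 18 tested genes (44.4%) had an unadjusted p under 0.05, 7 of them lower in DKO lines. Within 5 Mb the share was 19.6% of 138 genes and within 10 Mb it was 16.7% of 228 genes, against 7.3% of all genes. The centre of this window was chosen after the values were seen. Pla2g4e (chr2:120166412-120245630), which encodes a cytosolic phospholipase A2 family enzyme that makes N-acyl phospholipids, lies 2.385 Mb before Spata5l1 and moved the other way. It was at 25.5, 16.8 and 14.9 CPM in DKO lines, against 0.629, 0.171, 0 and 0.0590 CPM in Host lines, a fold change of 6.39 ± 0.64 (adjusted p = 3.27e-05). Its nearest tested neighbours, Ehd4 (0.46 ± 0.14, adjusted p = 0.388) and Pla2g4f (-0.19 ± 0.49, adjusted p = 0.948), were not called.

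The promoters of AA467197 and Spata5l1 are shown because these genes lie closest together, 1.409 kb apart, and both fell. They are the 250 bases before the annotated start in RefSeq on GRCm38.p6, given from 5′ to 3′ of the gene, and capitals mark the E-box CACGTG, a palindrome found on both strands, which 8.04% of 16041 promoters of tested genes hold.
AA467197 (chr2:122637637-122637886, plus strand): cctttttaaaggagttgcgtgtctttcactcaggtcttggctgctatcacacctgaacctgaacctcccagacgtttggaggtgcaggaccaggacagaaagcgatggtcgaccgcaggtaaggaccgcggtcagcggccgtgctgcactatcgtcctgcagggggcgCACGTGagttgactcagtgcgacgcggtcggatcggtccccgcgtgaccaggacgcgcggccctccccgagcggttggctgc
Spata5l1 (chr2:122630375-122630624, plus strand): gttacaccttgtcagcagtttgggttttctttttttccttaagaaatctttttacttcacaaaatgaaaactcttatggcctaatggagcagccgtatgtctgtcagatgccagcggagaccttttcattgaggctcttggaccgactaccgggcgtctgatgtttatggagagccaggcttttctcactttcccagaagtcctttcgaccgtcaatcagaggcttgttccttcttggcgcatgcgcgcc
The AA467197 window holds 1 E-box and 24 CpG dinucleotides, and that of Spata5l1 holds no E-box and 10 CpG dinucleotides, with a median of 14 over all 16041 promoters. Neither holds a CCAAT box. The window of Slc30a4, which also fell, holds 40 CpG dinucleotides and no E-box and is not printed.

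The distal group consists of Gm14393, Gm14305, Gm14295 and Gm14410, members of a large array of KRAB zinc finger genes with predicted names, and all 4 fell. Gm14305 (chr2:176708353-176721813) was at 0.101, 0.162 and 0 CPM in DKO lines, against 9.69, 12.2, 5.30 and 4.01 CPM in Host lines (-6.40 ± 0.67, adjusted p = 5.85e-05). Gm14295 (chr2:176798179-176814092) had no count in any DKO library, against 4.29, 3.26, 1.72 and 3.24 CPM in Host lines, at least 58.11-fold lower in DKO lines when the DKO group is given a floor of 3 counts in all. Gm14410 (chr2:177190575-177206497) was at 3.14, 3.07 and 2.81 CPM in DKO lines, against 19.6, 19.8, 9.59 and 10.6 CPM in Host lines (-2.31 ± 0.25, adjusted p = 6.42e-05). Gm14410 and Gm14305 were higher in Host 1 and Host 2 than in Host 3 and Host 4, and still no Host library reached down to the DKO level. Gm14393 (chr2:175057954-175150705) was at 1.62, 2.67 and 2.14 CPM in DKO lines, against 9.77, 9.43, 6.43 and 4.01 CPM in Host lines (-1.81 ± 0.32, adjusted p = 0.0239), and it was not called in 4 of the 7 fits that each left out a library.

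Gaps of 76.37 kb and 376.5 kb separate Gm14295 from Gm14305 and Gm14410, and Gm14393 lies 1.558 Mb before Gm14305. Of 10 tested genes of this array with Gm14 names, all 10 had a negative fold change, but the median of all tested genes was itself -0.05. The 4 called were the only ones with an unadjusted p under 0.05. Gm14403 (-0.04 ± 0.27), Gm14322 (-0.03 ± 0.23) and Gm14325 (-0.19 ± 0.22), which lie beyond Gm14410, were expressed at 18.9, 17.5 and 63.5 CPM in DKO lines, against 19.4, 18.0 and 72.2 CPM in Host lines. These genes are near copies of each other: 89.1% of the 50-base stretches of the Gm14305 transcript, 79.9% for Gm14393, 75.8% for Gm14410 and 73.8% for Gm14295 also occur in transcripts of other genes. The handling of reads that fit several copies is not stated in the labels, so which copy each count belongs to is uncertain.

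The likeness of these 4 genes extends to their promoters, which are shown for that reason (250 bases before an annotated start, RefSeq, GRCm38.p6, 5′ to 3′ of the gene). The windows of Gm14393 and Gm14295 lie inside the spans given above for these genes, so they precede a start within the span. Capitals mark the CCAAT box, written CCAAT on the strand shown or ATTGG where it is on the other strand.
Gm14393 (chr2:175067770-175068019, minus strand): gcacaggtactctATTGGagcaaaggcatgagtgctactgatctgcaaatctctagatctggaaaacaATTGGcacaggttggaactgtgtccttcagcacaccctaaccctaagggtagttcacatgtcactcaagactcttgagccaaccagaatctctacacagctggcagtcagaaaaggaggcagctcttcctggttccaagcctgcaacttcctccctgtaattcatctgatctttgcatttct
Gm14305 (chr2:176708103-176708352, plus strand): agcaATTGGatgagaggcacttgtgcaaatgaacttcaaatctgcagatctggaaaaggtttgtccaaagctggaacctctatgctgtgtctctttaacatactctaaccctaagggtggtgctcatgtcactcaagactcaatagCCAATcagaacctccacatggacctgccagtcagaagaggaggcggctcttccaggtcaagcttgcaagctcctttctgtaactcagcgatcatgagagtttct
Gm14295 (chr2:176798350-176798599, plus strand): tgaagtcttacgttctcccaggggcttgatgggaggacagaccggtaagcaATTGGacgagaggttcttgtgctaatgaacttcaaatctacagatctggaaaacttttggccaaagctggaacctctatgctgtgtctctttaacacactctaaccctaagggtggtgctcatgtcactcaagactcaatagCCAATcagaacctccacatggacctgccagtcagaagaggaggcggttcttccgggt
Gm14410 (chr2:177206497-177206746, minus strand): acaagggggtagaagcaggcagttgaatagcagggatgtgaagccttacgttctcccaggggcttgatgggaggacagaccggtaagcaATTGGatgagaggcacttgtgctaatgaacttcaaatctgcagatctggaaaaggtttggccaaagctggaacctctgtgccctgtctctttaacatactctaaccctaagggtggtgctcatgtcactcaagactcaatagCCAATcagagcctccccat
Each of the 4 windows holds 2 CCAAT boxes, and 35.3% of the 16041 promoters hold at least 1. In Gm14393 both boxes are on the other strand, and in the other genes 1 is on each strand. They hold 0, 2, 5 and 2 CpG dinucleotides in the order printed, fewer than the median of 14. A motif match describes the letters and is no evidence of a bound factor.

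**Figure D2:**
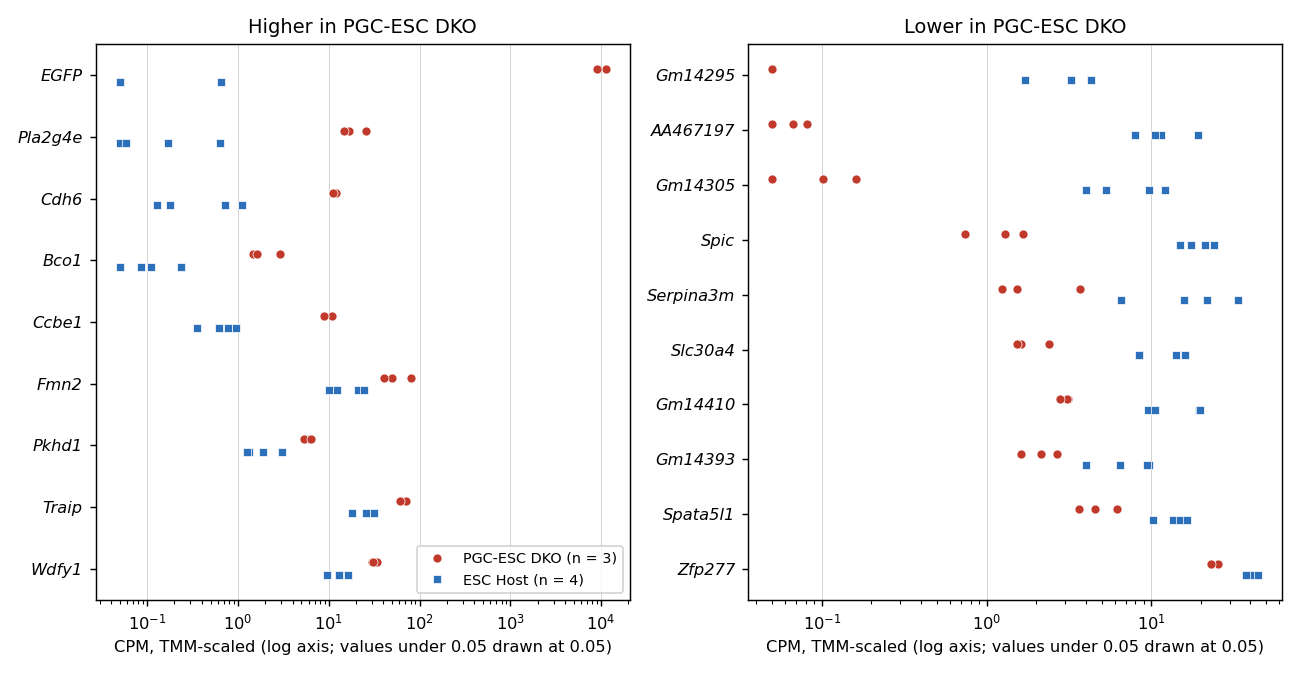
Level of each of the 19 called genes in every library (CPM on a log axis, with values under 0.05 drawn at 0.05), with the 9 genes higher in PGC-ESC DKO at left and the 10 lower at right. Red circles are the 3 DKO libraries and blue squares the 4 Host libraries, and in no gene do the groups overlap.

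Outside chromosome 2, the genes higher in DKO lines had varied roles. Ccbe1, a secreted protein needed for lymphatic vessel growth, was at 11.0, 8.80 and 8.95 CPM in DKO lines, against 0.777, 0.943, 0.617 and 0.354 CPM in Host lines (3.81 ± 0.36, adjusted p = 2.07e-05). Ccbe1 is the nearest tested neighbour of the targeted Pmaip1 on one side, 287.7 kb away between gene centres on chromosome 18. Cdh6, a type II cadherin of kidney and neural crest, was at 12.1, 12.0 and 11.2 CPM in DKO lines, against 1.11, 0.729, 0.130 and 0.177 CPM in Host lines (4.42 ± 0.55, adjusted p = 0.000435). For both genes the DKO lines lay close together while the Host lines were at or near 1 CPM or lower.

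Traip, a ubiquitin ligase that acts at stalled replication forks, was at 67.1, 71.2 and 60.5 CPM in DKO lines, against 31.9, 25.6, 18.0 and 31.3 CPM in Host lines (1.31 ± 0.17, adjusted p = 0.000558). Wdfy1, an endosomal protein with a FYVE domain, was at 30.3, 33.7 and 31.1 CPM in DKO lines, against 16.3, 13.1, 9.55 and 12.9 CPM in Host lines (1.29 ± 0.15, adjusted p = 0.000184). In both genes the DKO lines lay close together and above every Host line, but neither was called in the fit of the compared groups alone (adjusted p = 0.0806 for Traip and 0.0771 for Wdfy1). Bco1, which cleaves beta-carotene to retinal, was at 1.45, 2.91 and 1.60 CPM in DKO lines, against 0.111, 0.0857, 0 and 0.236 CPM in Host lines (4.28 ± 0.62, adjusted p = 0.00321); without Host 1 and Host 2 it was not called (adjusted p = 0.107; up to 0.0252 when 1 library was left out). Fmn2, an actin nucleator known from the oocyte spindle, was at 50.3, 41.1 and 80.0 CPM in DKO lines, against 21.0, 24.3, 12.4 and 10.1 CPM in Host lines (1.75 ± 0.33, adjusted p = 0.0385). Pkhd1, the fibrocystin gene of polycystic kidney disease, averaged 5.94 ± 0.55 CPM in DKO lines and 1.88 ± 0.82 CPM in Host lines (SD, n = 3 and 4; 1.66 ± 0.31, adjusted p = 0.0385, edgeR). Fmn2 and Pkhd1 were the least stable calls: leaving out 1 library ended the call in 5 of 7 fits for Fmn2 and in 6 of 7 for Pkhd1, with adjusted p-values up to 0.272 and 0.193.

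Among the genes lower in DKO lines outside chromosome 2, Spic had the largest difference. Spic, an ETS factor of splenic macrophages that is also a transcript of naive ESCs, was at 0.742, 1.29 and 1.67 CPM in DKO lines, against 17.6, 21.3, 15.0 and 24.2 CPM in Host lines (-4.03 ± 0.38, adjusted p = 6.42e-05). The lowest Host library still held several times the highest DKO library. Zfp277, a zinc finger protein, was at 23.0, 25.5 and 23.2 CPM in DKO lines, against 37.7, 40.5, 37.7 and 44.8 CPM in Host lines (-0.75 ± 0.12, adjusted p = 0.0064). Serpina3m, a serine protease inhibitor with close paralogs, was at 1.25, 3.71 and 1.54 CPM in DKO lines, against 21.8, 6.60, 33.8 and 15.9 CPM in Host lines (-3.22 ± 0.59, adjusted p = 0.034). Leaving out 1 library ended the call in 2 of 7 fits for Zfp277 and 4 of 7 for Serpina3m, and 19.1% of the 50-base stretches of Serpina3m occur in other genes.

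Just past the threshold, with adjusted p-values from 0.0543 to 0.0612, were Tmco5b, the protease inhibitor A2m, Pmaip1, the fatty acid desaturase Fads2, Serpina3h and the metalloprotease Mep1b. Fads2 was at 128, 111 and 87.9 CPM in DKO lines, against 176, 170, 248 and 186 CPM in Host lines (-0.84 ± 0.17, adjusted p = 0.0585). Mep1b was at 1.75, 4.20 and 4.08 CPM in DKO lines, against 62.0, 11.6, 49.7 and 11.2 CPM in Host lines (-3.36 ± 0.67, adjusted p = 0.0612). All 6 had groups that did not overlap, as did 5.64% of all tested genes, but they were picked for their low p-values in this comparison. Serpina3h differed in the direction opposite to its paralog Serpina3m, with 2.37 ± 0.46 (adjusted p = 0.0604).

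The pluripotency genes checked the ESC label and gave the comparison its scale. Of 10 core pluripotency genes tested, none was called and 1 had an unadjusted p under 0.05; for 8 of the 10 the 95% interval lay within 2-fold, and the list's median was -0.00. Pou5f1 (Oct4) was at 1504, 2385 and 1586 CPM in DKO lines, against 1278, 1359, 1370 and 2207 CPM in Host lines (0.23 ± 0.19, adjusted p = 0.852). Sox2 averaged 870 ± 33.1 CPM in DKO lines and 763 ± 94.1 CPM in Host lines (SD, n = 3 and 4), and its 95% interval ran from -0.12 to 0.50. Nanog averaged 900 ± 52.7 CPM in DKO lines and 923 ± 153 CPM in Host lines, with an interval from -0.60 to 0.52. Tdgf1, the NODAL co-receptor, was below all Host lines in every DKO line (-0.41 ± 0.19, unadjusted p = 0.0383, adjusted p = 0.662) and was not called.

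Of 19 naive pluripotency genes tested, Spic alone was called, and 16 had an interval within 2-fold. Esrrb averaged 859 ± 60.7 CPM in DKO lines and 840 ± 62.2 CPM in Host lines, with an interval from -0.27 to 0.33. Zfp42 (Rex1) averaged 153 ± 13.1 CPM in DKO lines and 147 ± 6.22 CPM in Host lines, with an interval from -0.13 to 0.25. Klf2 (0.11 ± 0.18), Klf4 (-0.15 ± 0.33), Tfcp2l1 (-0.14 ± 0.17) and Tbx3 (0.14 ± 0.24) differed by less than the SE of their fold change. The list's median was -0.07, beside -0.05 for all genes. Genes of the LIF and STAT3 pathway, which the culture stimulates, had an interval within 2-fold for 12 of 12, and none was called, with 1 at an unadjusted p under 0.05. Of these 12, 11 had a negative fold change, with a median of -0.14. Of 15 formative epiblast genes none was called and 2 had an unadjusted p under 0.05, and of 12 FGF and ERK response genes none was called or had one. The interval reached past 2-fold for 7 of the 15 and 4 of the 12.

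**Figure D3:**
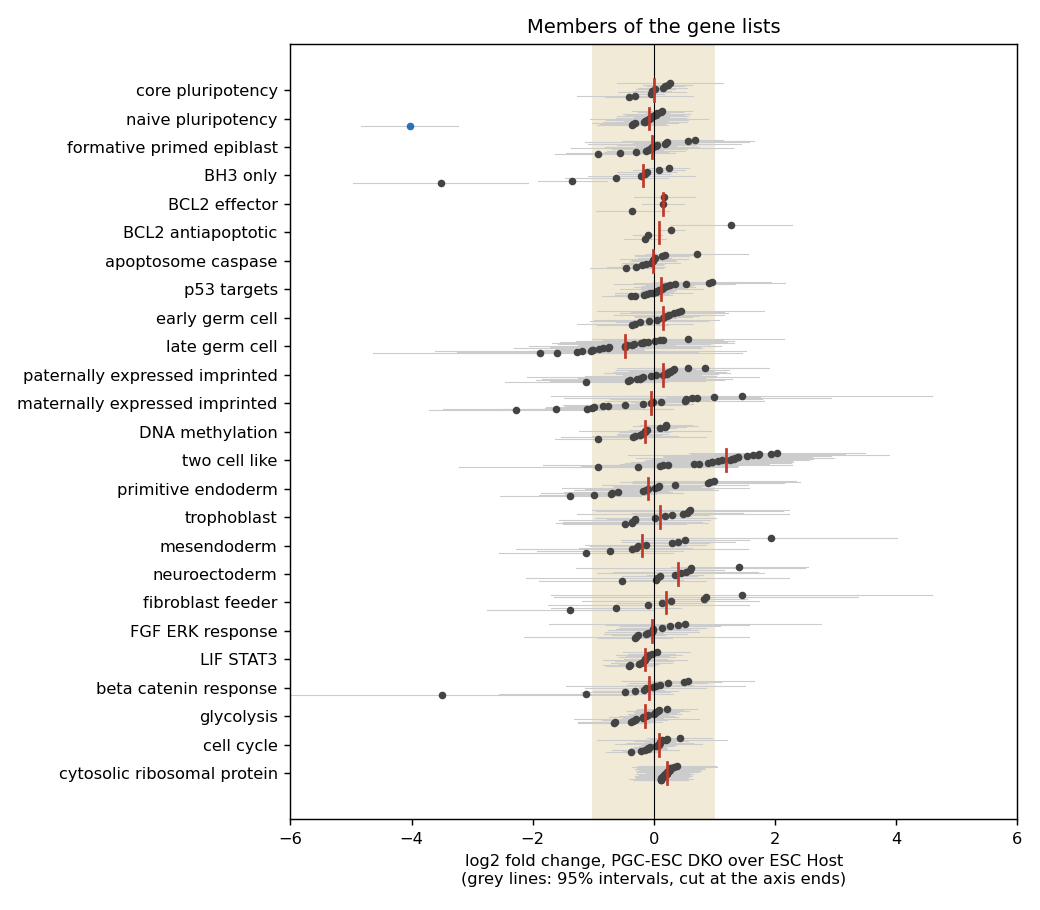
Log2 fold change of PGC-ESC DKO over ESC Host for each tested member of 25 gene lists (points, with 95% intervals in grey and the list's median as a red bar); the shaded band spans 2-fold in both directions. The core, naive and LIF lists lie within the band except for Spic (blue, the only called member). The two-cell-like list and, less so, the neuroectoderm list are shifted to the right, and the late germ cell list to the left.

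The apoptosis genes beyond the targeted pair did not pass the test. Of 8 BH3-only genes none was called and 2, Pmaip1 and Bmf, had an unadjusted p under 0.05. Bmf, a BH3-only protein tied to the cytoskeleton, was at 5.13, 4.20 and 4.94 CPM in DKO lines, against 12.1, 11.6, 11.6 and 13.1 CPM in Host lines (-1.34 ± 0.27, adjusted p = 0.066), without overlap. Its centre lies at -4.10 Mb from that of AA467197 on chromosome 2, and DESeq2 called it. The BH3-only genes Bcl2l11 (Bim) (0.25 ± 0.16), Bid (-0.15 ± 0.20), Bad (0.09 ± 0.21) and Hrk (-0.62 ± 0.41) had overlapping groups.

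The effector genes Bax, Bak1 and Bok had intervals within 2-fold for 3 of 3. Bax averaged 433 ± 140 CPM in DKO lines and 383 ± 168 CPM in Host lines (0.18 ± 0.24, adjusted p = 0.893), and Bak1 averaged 119 ± 16.7 CPM in DKO lines and 107 ± 25.9 CPM in Host lines (0.15 ± 0.17, adjusted p = 0.876). Of the 4 tested inhibitors none was called, and 2, Bcl2 and Bcl2l1 (BCL-XL), had an unadjusted p under 0.05. Both were higher in DKO lines (2.08% of all genes were). Bcl2 had a log2 fold change of 1.28 (adjusted p = 0.583, edgeR), with overlapping groups. Bcl2l1 was at 73.2, 86.3 and 90.0 CPM in DKO lines, against 70.3, 64.5, 66.5 and 70.9 CPM in Host lines (0.29 ± 0.11, adjusted p = 0.595), above all Host lines. Mcl1, the most abundant of the 4 inhibitors, averaged 420 ± 28.0 CPM in DKO lines and 451 ± 56.2 CPM in Host lines. Of 20 genes of the p53 pathway, Bax and Trp53 (0.08 ± 0.13) among them, none was called and none had an unadjusted p under 0.05. The same held for 12 genes of the apoptosome and caspases.

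No germ cell gene passed the test. Of 12 early germ cell genes none was called or had an unadjusted p under 0.05, and Alpl, the tissue-nonspecific alkaline phosphatase of PGCs, was at 448, 414 and 412 CPM in DKO lines, against 374, 407, 420 and 332 CPM in Host lines (0.15 ± 0.11, unadjusted p = 0.179). Of 24 late germ cell genes none was called, 20 had a negative fold change and 6 had an unadjusted p under 0.05, all lower in DKO lines (5.23% of all genes were), with a median of -0.48. The 6 include the helicase Ddx4 (9.60 CPM in DKO lines, against 18.0 CPM in Host lines), the piRNA-binding Piwil2 (5.09 CPM in DKO lines, against 10.2 CPM in Host lines) and the synaptonemal Sycp1 (1.47 CPM in DKO lines, against 3.35 CPM in Host lines). Tdrd12, a helicase with a Tudor domain and the most abundant member, was at 130 ± 18.2 CPM in DKO lines and 120 ± 12.3 CPM in Host lines (SD, n = 3 and 4), with overlapping groups. The list summed to 251 to 254 CPM in DKO lines, within the 237 to 348 CPM of the Host lines. For 21 of the 24 the interval reached past 2-fold, so that a difference of that size is not excluded for them.

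Two-cell-like genes, transcripts of the early embryo that a rare fraction of ESCs switches on, leaned the other way. None of 24 was called, 22 had a positive fold change, 8 had an unadjusted p under 0.05, all higher in DKO lines (2.08% of all genes were), and the median was 1.19. Zscan4d averaged 11.1 CPM in DKO lines, against 4.60 CPM in Host lines (1.26, unadjusted p = 0.0579), and Zfp352 averaged 2.54 CPM in DKO lines, against 0.597 CPM in Host lines (2.03, unadjusted p = 0.00892). The list's interval reached past 2-fold for all 24, and its genes include sets of near copies. The summed level of the list overlapped between the groups (252 to 439 CPM in DKO lines, 157 to 440 CPM in Host lines).

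Imprinted genes, whose marks PGCs erase, differed among lines within each group. None of 19 paternally expressed genes was called or had an unadjusted p under 0.05. None of 19 maternally expressed genes was called, and 7 had an unadjusted p under 0.05 (7.3% of all genes did). Of the 7, 5 were lower and 2 higher in DKO lines (5.23% and 2.08% of all genes were). The median of the maternally expressed list was -0.04, beside -0.05 for all genes. Meg3 was at 275, 269 and 116 CPM in DKO lines, against 100, 258, 172 and 87.4 CPM in Host lines, and the paternally expressed Plagl1 was at 102, 77.9 and 157 CPM in DKO lines, against 192, 93.8, 54.1 and 32.5 CPM in Host lines. In Meg3 and Plagl1 the lines of a group differed and the groups overlapped. Of the other abundant members, Impact had 0.26 (adjusted p = 0.859, edgeR) and Cd81 had -0.01 (adjusted p = 0.997, edgeR). Of 12 DNA methylation genes none was called and 1 had an unadjusted p under 0.05, and Uhrf1 averaged 698 ± 128 CPM in DKO lines and 653 ± 65.8 CPM in Host lines.

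Markers of other cells were not called. No gene was called among 15 of the primitive endoderm, 12 of the trophoblast, 10 of the mesendoderm, 10 of the neuroectoderm and 8 (of 12 listed) of fibroblasts and feeder cells, and 2, 0, 0, 2 and 2 of them had an unadjusted p under 0.05. The neuroectoderm list leaned higher in DKO lines: 9 of its 10 members had a positive fold change, with a median of 0.40. Both of its members with such a p were higher (2.08% of all genes were). Its summed level overlapped between the groups (152 to 208 CPM in DKO lines, 106 to 202 CPM in Host lines). The fibroblast list summed to 328 to 471 CPM in DKO lines, against 140 to 355 CPM in Host lines, most of it Vim (404 ± 78.0 CPM in DKO lines and 228 ± 108 CPM in Host lines, adjusted p = 0.642), and its part in the results was not tested. Of 16 cell cycle genes none was called, none had an unadjusted p under 0.05 and 15 had an interval within 2-fold. Of 16 glycolysis genes none was called and 2 had such a p. Of 12 beta-catenin response genes none was called, 1 had such a p and 8 had an interval that reached past 2-fold.

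Ribosomal protein genes depended on which libraries were compared. All 20 tested had a positive fold change between 0.11 and 0.38, none was called and none had an unadjusted p under 0.05; their summed level was 35042 to 58644 CPM in DKO lines and 28931 to 61080 CPM in Host lines. Rps2 was at 3480, 4545 and 3133 CPM in DKO lines, against 2716, 2954, 2912 and 5048 CPM in Host lines, so that Host 4 was the highest and DKO 2 the next. With DKO 3 and Host 4 left out, 15 of the 20 were called higher in DKO lines, and their median was 0.74. Bax, Cdk4, Cdkn2a, Gnas and Tubb3 were also called higher in that fit. DKO 2 and Host 4 also had the highest Rn45s levels of the 7 libraries, and the part of that RNA in the result was not tested.

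After conversion to epiblast-like cells, fewer genes were called between DKO and Host cells. The test called 7 genes, 0.0428% of those tested (3.04% had an unadjusted p under 0.05): EGFP, Gm14295, Gm14305, Gm14410, Wdfy1, Pmaip1 and Ivd, an enzyme of leucine breakdown. The first 5 were also called in naive culture, in the same direction, and make up 26.3% of the naive calls and 71.4% of the EpiLC calls. The 2 comparisons use different libraries of lines with the same names. Of the 19 naive calls, 16 had the same sign and groups that did not overlap in EpiLCs, where the groups of 24.7% of all tested genes did not overlap (12.4% with EpiLC DKO above and 12.3% with it below EpiLC Host). The other 3 are Gm14393, Ccbe1 and Spic.

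Pmaip1 was at 4.60, 5.31 and 3.76 CPM in EpiLC DKO, against 297 and 314 CPM in EpiLC Host (-6.06 ± 0.77, adjusted p = 0.00118, edgeR), so that the EpiLC Host level was far above that of ESC Host while the DKO lines were at 1.38 to 5.01 CPM in naive culture. Wdfy1 was at 21.2, 20.6 and 20.8 CPM in EpiLC DKO, against 6.40 and 6.51 CPM in EpiLC Host (1.69 ± 0.19, adjusted p = 0.000455). Gm14295 again had no count in DKO cells, against 3.10 and 3.88 CPM in EpiLC Host, at least 94.02-fold lower. Gm14410 was called as lower in EpiLC DKO (adjusted p = 0.00906), but not in 4 of the 5 fits that each left out an EpiLC library (adjusted p up to 0.137). Gm14393 went the other way: it was at 1.05, 1.26 and 1.82 CPM in EpiLC DKO, against 0.684 and 0.640 CPM in EpiLC Host (1.03 ± 0.41, adjusted p = 1), and the EpiLC difference minus the ESC difference was 2.84 ± 0.52 (adjusted p = 0.196, edgeR; called without ESC Host 4, adjusted p = 0.0208, and with DESeq2). Ivd was at 23.9, 23.4 and 26.9 CPM in EpiLC DKO, against 45.1 and 42.3 CPM in EpiLC Host (-0.82 ± 0.14, adjusted p = 0.0251), a call lost in each of the 5 fits without 1 library (adjusted p from 0.0528 to 0.416), without the filter on low counts and in a fit of the compared groups alone; in naive culture it had -0.53 ± 0.12 (adjusted p = 0.107). The centre of Ivd lies at -3.77 Mb from that of AA467197 on chromosome 2.

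The difference between the states was itself called for 1 gene, Ccbe1 (0.00611% of genes tested, with an unadjusted p under 0.05 for 2.8%). Ccbe1 was at 1.33, 1.19 and 0.425 CPM in EpiLC DKO, against 1.25 and 1.74 CPM in EpiLC Host, with overlapping groups, and the EpiLC difference minus the ESC difference was -4.37 ± 0.55 (adjusted p = 0.00486, edgeR). Without EpiLC Host 4 it was not called (adjusted p = 0.0979; 0.0062 to 0.0979 when 1 library was left out), nor in a fit of the compared groups alone (adjusted p = 0.056) or with the line as a block. Other genes of the naive list had low levels in EpiLCs: Spic had no count in any of the 5 EpiLC libraries, and Pla2g4e was at 0.0568, 0.384 and 0.121 CPM in EpiLC DKO, against 0.0402 and 0 CPM in EpiLC Host. AA467197 was at 0.0852, 0.140 and 0.182 CPM in EpiLC DKO, against 0.483 and 0.320 CPM in EpiLC Host. Slc30a4 remained expressed, at 10.8, 9.01 and 8.20 CPM in EpiLC DKO, against 15.0 and 16.4 CPM in EpiLC Host (-0.75 ± 0.30, adjusted p = 1).

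**Figure D4:**
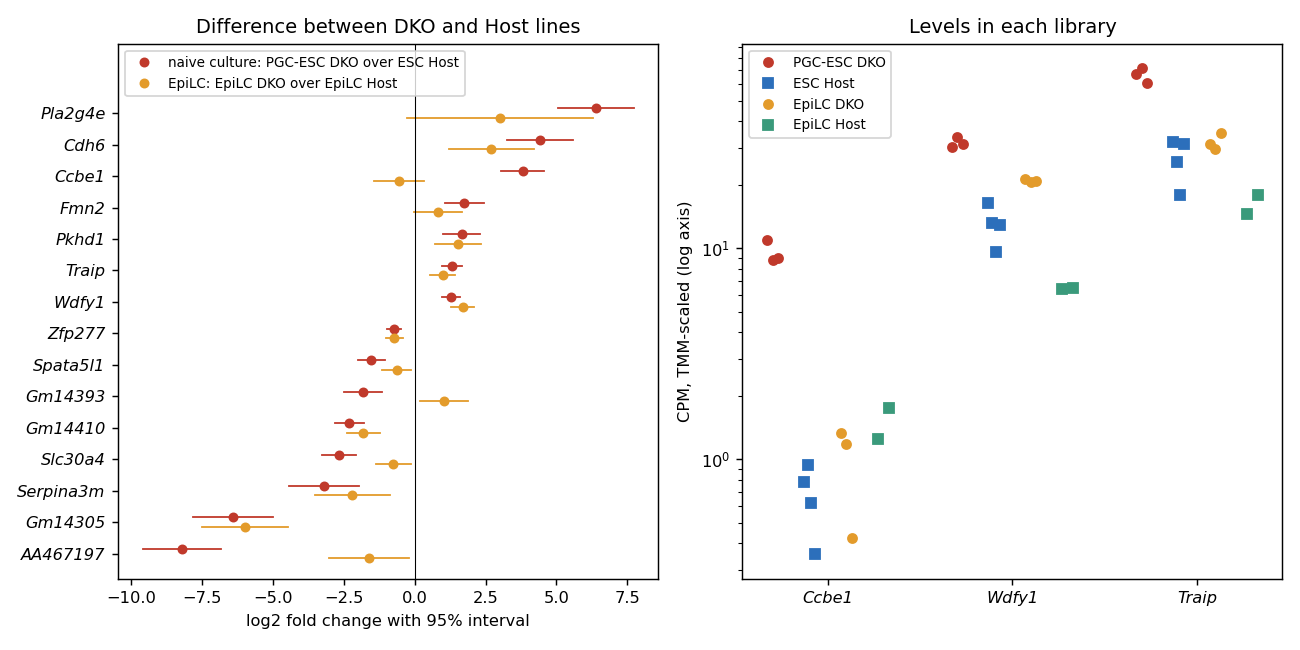
Left, log2 fold changes with 95% intervals for 15 called genes, in naive culture (red, PGC-ESC DKO over ESC Host) and in EpiLCs (orange, EpiLC DKO over EpiLC Host); EGFP and genes without a count in a whole group are left out. Right, levels in each library on a log axis: Wdfy1 and Traip lie above the Host libraries in every DKO library in both states, while Ccbe1 overlaps between EpiLC DKO and EpiLC Host.

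The other lines of the series place these levels. PGC-ESC BaxKO (5 lines grown from PGCs), ESC BaxKO (2 lines) and ESC BaxHet (1 line) lack Bax or are heterozygous for it, and all 8 carry the strain label C57Bl6J/129SvEvRoEp, so that their genotype and strain cannot be told apart and no test was run against them here. Pla2g4e, at 19.1 ± 5.63 CPM in PGC-ESC DKO, was at 14.7 ± 3.57 CPM in the PGC-ESC BaxKO lines, at 21.8 and 11.8 CPM in ESC BaxKO and at 13.5 CPM in ESC BaxHet, so that the Host mean of 0.215 ± 0.285 CPM was the one that stood apart. Traip averaged 66.3 ± 5.43 CPM in DKO lines and likewise 73.0 ± 9.93 CPM in the BaxKO lines from PGCs, with 76.3 and 78.3 CPM in the ESC BaxKO lines, against 26.7 ± 6.46 CPM in Host lines. Ccbe1 was at 5.26 ± 1.58 CPM in PGC-ESC BaxKO, at 7.01 and 6.61 CPM in ESC BaxKO and at 6.70 CPM in ESC BaxHet. These lie between its means of 9.58 CPM in DKO lines and 0.673 CPM in Host lines, and were above every Host line.

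Other genes had levels in PGC-ESC BaxKO nearer to those of Host lines. AA467197 was at 14.3 ± 5.68 CPM in PGC-ESC BaxKO, Gm14410 at 20.3 ± 2.33 CPM, Slc30a4 at 10.4 ± 2.32 CPM and Spic at 28.3 ± 8.09 CPM, all near or above their Host levels, and Cdh6 was at 0.298 ± 0.181 CPM, near its Host level. Wdfy1 differed from both patterns, with DKO levels between those of the Bax lines: it was at 54.1 ± 6.56 CPM in the BaxKO lines from PGCs, at 54.0 CPM in the BaxHet line and at 26.5 and 24.9 CPM in the ESC BaxKO lines, all above the Host lines. Pmaip1, the gene of Noxa, spread widely among lines that are not labelled as its knockout: its level was 41.7, 4.30, 24.5, 19.6 and 5.34 CPM for PGC-ESC BaxKO 1 to 5, 9.39 and 6.24 CPM for ESC BaxKO 1 and 2 and 15.3 CPM for ESC BaxHet. The lowest of these, PGC-ESC BaxKO 2, lay within the range of the PGC-ESC DKO lines.

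The chromosomal surroundings of the targeted genes were examined as well. Within 10 Mb of Pmaip1, 1 of 126 tested genes was called, Ccbe1, and 11.1% had an unadjusted p under 0.05. This share was 16.7% of 18 genes within 1 Mb and 6.15% of 65 genes within 5 Mb. Within 10 Mb of Bbc3, 0 of 197 genes were called by edgeR and 5.08% had an unadjusted p under 0.05, beside 7.3% of all genes. Closer to Bbc3 the share was higher, with 8.11% of 37 genes within 1 Mb and 13% of 23 genes within 0.5 Mb. Those within 0.5 Mb were 3 genes, all lower in DKO lines (5.23% of all genes were). Among them was Obox6, with -2.38 (adjusted p = 0.0698, edgeR). The neighbours of Bbc3, Ccdc9 (0.12 ± 0.11, adjusted p = 0.867) and Sae1 (0.07 ± 0.13, adjusted p = 0.932), were not called, and on the other side of Pmaip1 from Ccbe1, Gm9926 had 1.56 ± 0.75 (adjusted p = 0.701).

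**Figure D5:**
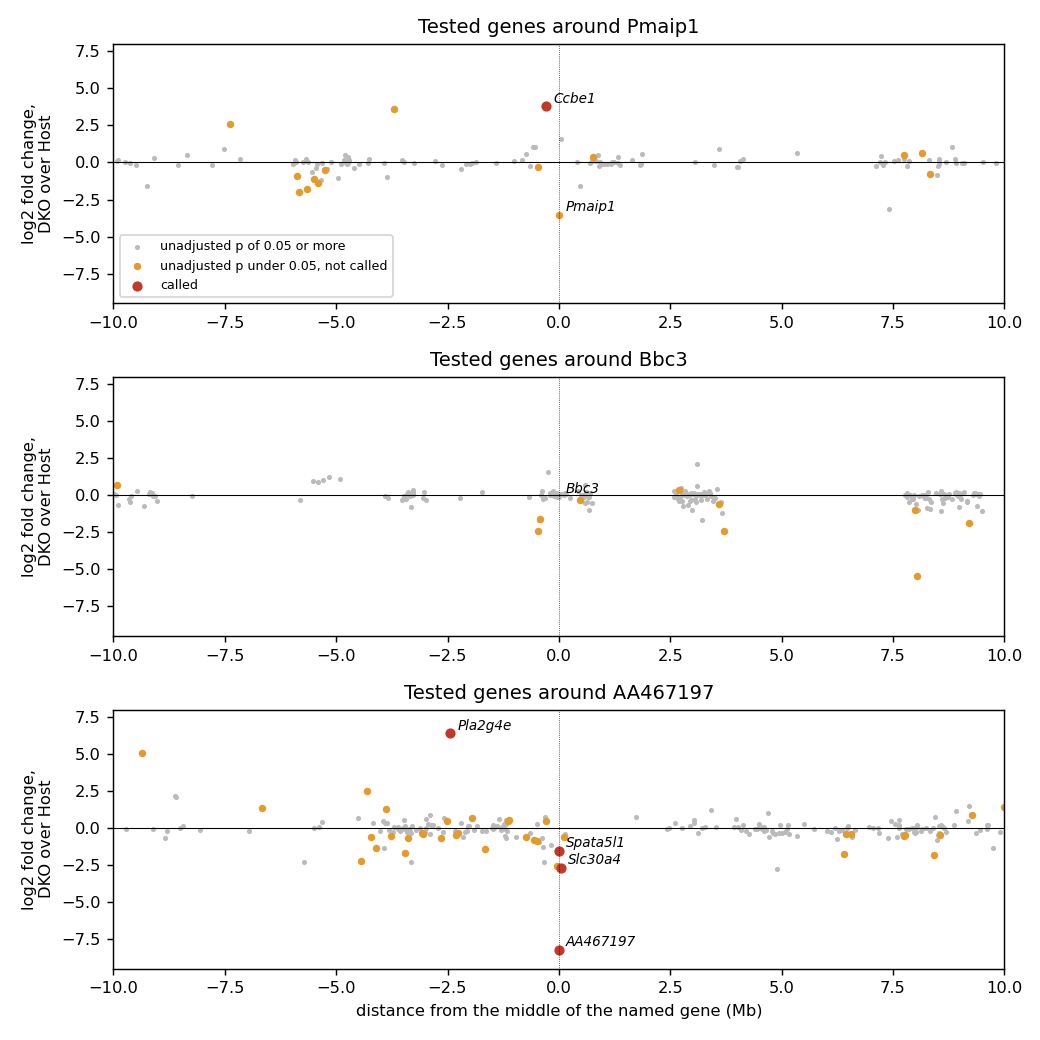
Log2 fold change of PGC-ESC DKO over ESC Host of each tested gene against its distance in Mb from the centre of Pmaip1 (top), Bbc3 (middle) and AA467197 (bottom). Called genes are red and genes with an unadjusted p under 0.05 orange; 4 called genes are named in the AA467197 panel, 1 in the Pmaip1 panel and 0 in the Bbc3 panel.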

How the data were processed

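Poly(A) RNA of 20 mouse cell line libraries had been sequenced, and the deposited table holds raw read counts for 21361 genes. Reads were aligned with STAR 2.7.7a to mm10, per the submitters' processing notes. Neither the counting tool nor its gene annotation is named in the labels.

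Counts were analysed as deposited in edgeR 4.0.16 (R 4.3.3) with TMM scaling, the filterByExpr filter (4998 genes were not tested) and a quasi-likelihood F test over all 20 libraries and 7 groups (13 residual degrees of freedom). The Benjamini-Hochberg adjustment ran over 16363 genes. The procedure was also tested on simulated data. DESeq2 1.42.0 was an alternative. Depth ranged from 14255399 to 33376660 counts over the 20 libraries. Counting intervals (95%, conditional binomial) and floors of 3 counts cover counting error only.

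Positions and promoters were taken from RefSeq (GRCm38.p6); 19 tested genes had none. Replicate libraries differed by more than sampling noise. Members, gene lists and tests were chosen with earlier results of these data known. Named genes were the targeted genes and reporter, the called genes and the 6 next to the threshold, members of the pluripotency and BCL-2 family lists, called or the most abundant members of other lists, and neighbours of called and targeted genes; other genes were named after their values were seen.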

Additional observations from a re-analysis of the deposited data

Results flagged for a closer look

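In 68 genes checked among the 4 ESC Host libraries, 1 library lay far from the other 3 in 5 cases, and chance flags about 1 in 20 such groups. Host 4 was the high library in 4 of them: EGFP was at 0.649 CPM there and at 0 in the other Host libraries, Pou5f1 at 2207 CPM (1278 to 1370 CPM in the others), Dppa3 at 84.2 CPM (22.3 to 24.0 CPM) and Tcl1 at 88.6 CPM (47.7 to 48.5 CPM). Prdm14 was at 114 CPM in Host 1, against 56.8 to 64.1 CPM in the other Host libraries. Ccbe1 differed between the states: the EpiLC difference minus the ESC difference was -4.37 on the log2 scale (adjusted p = 0.00486, edgeR), with DKO above Host in naive culture in 3 of 3 lines and overlapping groups in EpiLCs.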

How the results depend on the processing

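For the naive comparison (19 calls), RLE scaling, leaving out Rn45s, leaving out Host 1 and 2, an adjusted p under 0.01 and no filter on low counts gave 15 to 28 calls. In a fit of the compared groups alone 9 genes were called, with DESeq2 92, and with DKO 3 and Host 4 left out 441; leaving out 1 library gave 14 to 44. Called in every one of 15 alternatives were 6 genes: EGFP, AA467197, Ccbe1, Pla2g4e, Gm14305 and Spic. Leaving out 1 library ended no call for 14 of the 19, and no named gene changed direction while called. For EpiLCs (7 calls), DESeq2 called 33, and leaving out 1 library gave 5 to 11. For the difference between states (1 call), the fit with only the compared groups gave 0, DESeq2 5 and leaving out 1 library 0 to 3. The causes were not tested.

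Replicate numbers are shared between the groups, but same-numbered DKO and Host libraries did not deviate together (r = -0.209, -0.236 and -0.131), so they share only a number; a replicate block on it left 6 calls. A block on the line for the difference between states gave 0 calls. No paired analysis was possible for EpiLCs because their groups share only 1 number.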
